A study of Mus musculus with 6 samples.

Results

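The mitochondrial carrier family, the Slc25a genes, was examined in pancreatic islets after knockout of Ythdc1 in beta cells of the mouse. Members were the protein-coding genes of the deposited table whose symbol begins with Slc25a and a number, and 47 of the 54532 genes in the table met this rule. Poly(A)-selected RNA was sequenced from 6 islet samples of mice aged 7 weeks, and the number of animals behind a sample was not stated. 3 libraries came from Ythdc1flox/flox mice, which carry the floxed gene and are called control here, and 3 from Ythdc1-betaKO mice, a beta-cell knockout of the same gene, called bKO. The sources used here do not give the driver of the deletion or say whether control mice carried it. The islets were whole, so every value is a sum over beta cells and the other cells of the islet, and a smaller number of cells of one type cannot be told apart from less RNA per cell. Per the labels, the replicates of a group are biologically independent.

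Carriers of this family sit in the inner mitochondrial membrane and move nucleotides, phosphate, carboxylates, amino acids and cofactors between the cytosol and the matrix. Beta cells depend on them to couple glucose breakdown to insulin release: ADP/ATP carriers export the ATP that closes the potassium channels of the cell surface, the aspartate/glutamate carriers run the malate-aspartate shuttle, and the citrate and oxoglutarate carriers return carbon to the cytosol. They are imported through a dedicated pathway and alternate between a state open to one face of the membrane and a state open to the other.

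The libraries held 16863329 to 18240339 reads each, as recovered from the values. Ythdc1 was at 5.76, 6.46 and 6.18 FPKM (fragments per kilobase of gene, scaled between libraries by size factors of the authors) in control and at 3.81, 3.79 and 3.87 FPKM in bKO, a fall of 0.56 on the log2(FPKM + 1) scale (SE 0.058, limma adjusted p = 0.00139). A free-text label names Ythdc genes other than Ythdc1 for bKO replicates 2 and 3, whereas the genotype label names Ythdc1 for all 3, and Ythdc1 was lower in each of them than in every control library. The 2 insulin genes took 21.6% to 23.3% of the reads in control and 15.2% to 16.2% in bKO. Marker genes of islet cell types moved with the genotype: 5 of 8 beta-cell markers fell, Ins1 and Ins2 among them, and 1 rose. Their summed level was 201000 to 222700 FPKM in control and 130900 to 140000 FPKM in bKO. This sum includes the 2 insulin genes and so is not a measure apart from their share of reads. Of 6 macrophage markers 2 fell (summed 82.1 to 94.5 FPKM against 53.0 to 65.7 FPKM), and of 5 endothelial markers 2 rose (summed 118.5 to 141.7 FPKM against 152.7 to 156.8 FPKM). 1 of 4 alpha-cell markers, the PP-cell marker Ppy, 1 of 4 tested mesenchymal and 2 of 4 erythroid markers rose, and the only tested lymphocyte marker, Cd79a, fell. The summed alpha-cell markers overlapped between genotypes (18380 to 22350 FPKM in control and 16730 to 20020 FPKM in bKO). Ppy was at 3808 to 5226 FPKM in control and at 8292 to 10840 FPKM in bKO. None of 3 delta-cell, 6 tested acinar, 2 tested duct, 3 Schwann-cell and 2 tested adipocyte markers was called by limma, and the fat-cell genes Adipoq and Plin1 were at 0 in every library. The part of cell composition in the carrier results was not tested.

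The 5 carrier mRNAs with the highest FPKM in control islets were those of Slc25a5, Slc25a4, Slc25a3, Slc25a39 and Slc25a1. Together they gave 52.3% to 54.8% of the family's summed FPKM in each of the 6 libraries. Slc25a5 and Slc25a4 encode ADP/ATP carriers, Slc25a3 the phosphate carrier, Slc25a39 a glutathione carrier and Slc25a1 the citrate carrier. The summed level of all members was 598, 566 and 554 FPKM in control and 528.5, 544 and 539 FPKM in bKO, and the groups did not overlap. The direction of this sum depended on the scaling: with library totals it was 556, 534 and 532 in control and 571, 575.1 and 575.4 in bKO, and with totals that leave out Ins1 and Ins2 the groups overlapped (679 to 725 in control and 676 to 686 in bKO). FPKM divides reads by the deposited gene length, so the order of genes depends on that length. Over the 3 control libraries Slc25a3 (length 5550 bases) had 15195 reads and Slc25a5 (length 1646 bases) had 7293. The order ran from Slc25a5 at 89.5 ± 3.9 FPKM (SD, n = 3) down to genes with 1 to 3 reads in a group, and Slc25a21, an oxodicarboxylate carrier, had 0 reads in all 6 libraries.

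**Figure D1:**
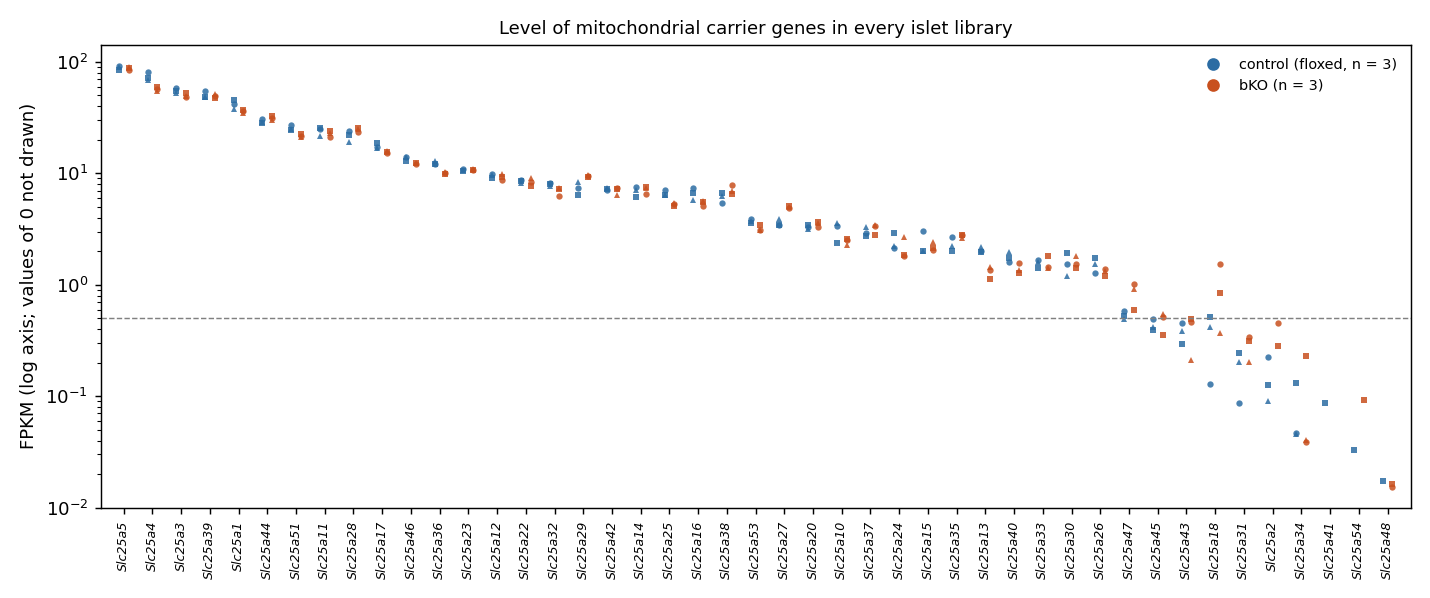
FPKM of the members with a read in any library, 1 left out, on a log axis with values of 0 not drawn, ordered by the control mean, with control libraries in blue and bKO libraries in orange (circle, square and triangle for replicates 1, 2 and 3). The dashed line marks 0.5 FPKM, the level a gene had to reach in at least 3 libraries to be tested, and the points of both genotypes lie close together above it and spread more widely below it.

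Of the 47 members, 38 reached 0.5 FPKM in at least 3 libraries and were tested. 2 rose and 6 fell in bKO by limma with Benjamini-Hochberg adjustment over all 15717 genes tested (adjusted p below 0.05). Over all genes tested 20.3% were called, 8.96% higher and 11.4% lower, so the 21.1% of tested members called is a share near the background and is not a property of the family. Groups did not overlap for 16 of 38 members (42.1%), against 40.1% of all genes tested. The median difference between genotypes on the log2(FPKM + 1) scale was -0.04 for members and -0.01 for all genes tested, and 24 members lay below 0 and 14 above. No member reached a difference of 0.5 in either direction on that scale, while 9.40% of all genes tested did. The pseudocount of 1 shrinks differences of low genes, members and others alike, so this holds for that scale only. The ratio of the bKO mean to the control mean was 0.642 for Slc25a13, 1.58 for Slc25a47 and 2.56 for Slc25a18, and the last 2 were not called. For 27 of the 30 tested members that were not called, the 95% interval of the difference stayed within 0.5 on either side of 0.

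**Figure D2:**
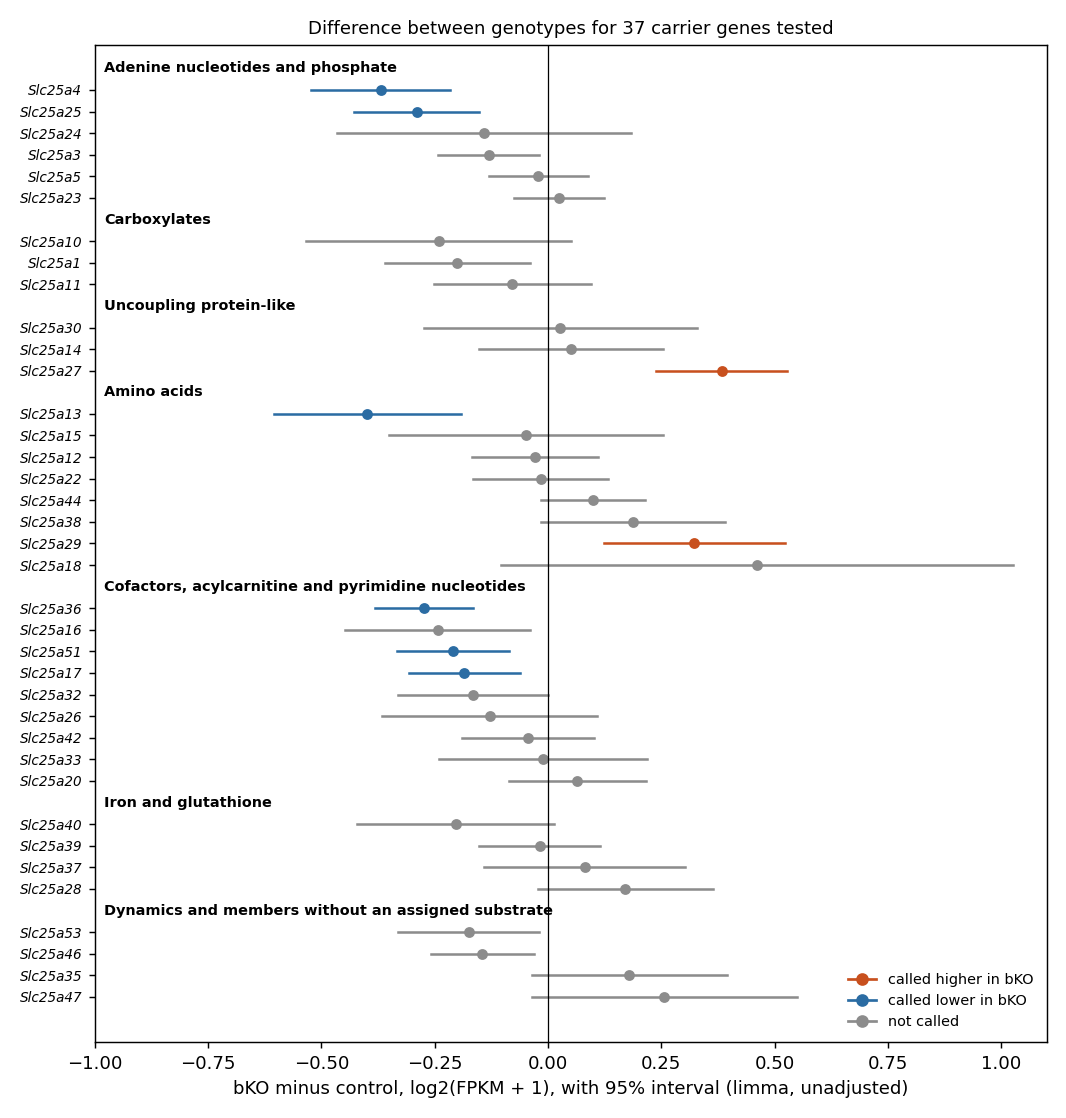
Difference between bKO and control on the log2(FPKM + 1) scale for 37 of the 38 members tested, with the 95% interval from limma, grouped by what the carriers move. Orange marks the 2 members called higher, blue the 6 called lower and grey those not called.

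The substrate groups below were set after the members' values were seen, so counts within a group only describe it. Among carriers of adenine nucleotides and phosphate, 2 of 6 tested members fell and 0 rose, against 11.4% and 8.96% of all genes tested. Slc25a4, the ADP/ATP carrier best known from heart and muscle (ENSMUSG00000031633, GRCm38 chromosome 8, 46206797 to 46211284), was at 80.9, 72.5 and 69.2 FPKM in control and at 56.6, 59.8 and 54.9 FPKM in bKO. Every bKO library was below every control library. Slc25a4 fell by 0.37 on the log2(FPKM + 1) scale (SE 0.065, limma adjusted p = 0.00945). Its bKO mean was 0.77 of its control mean, and it was called in all 15 settings of scaling, filter, test and left-out library. Slc25a5, the ADP/ATP carrier of most growing tissues (chromosome X, 36795651 to 36798807), was at 92.6, 85.2 and 90.8 FPKM in control and at 84.8, 89.0 and 90.9 FPKM in bKO. The libraries of the genotypes were interleaved, and the difference was -0.02 with a 95% interval of -0.13 to 0.09 (limma adjusted p = 0.783). Slc25a5 turned to 0.15 with libraries scaled by their totals (limma adjusted p = 0.0383), a setting that moved the median of all genes tested to 0.13.

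Slc25a25, a calcium-regulated ATP-Mg/phosphate carrier (chromosome 2, 32414487 to 32451445), was at 7.09, 6.44 and 6.39 FPKM in control and at 5.30, 5.06 and 5.39 FPKM in bKO. The groups did not overlap, and it fell by 0.29 on the log2(FPKM + 1) scale (SE 0.058, limma adjusted p = 0.0155). Leaving out control replicate 1, bKO replicate 1 or bKO replicate 2 ended its call (differences of -0.25, -0.30 and -0.27, limma adjusted p = 0.0521, 0.0506 and 0.0560), as did library totals (-0.14, limma adjusted p = 0.109). Its relatives Slc25a23 and Slc25a24 were at 10.7 ± 0.27 and 2.42 ± 0.41 FPKM in control and at 10.9 ± 0.13 and 2.11 ± 0.49 FPKM in bKO (SD, n = 3 per group), and neither was called. Slc25a3, which brings in the phosphate for ATP synthesis (chromosome 10, 91116574 to 91124059), was at 57.8, 55.3 and 52.8 FPKM in control and at 48.9, 52.4 and 49.9 FPKM in bKO. These libraries also did not overlap, but the difference of -0.13 was not called (95% interval -0.24 to -0.02, limma adjusted p = 0.0978). Voom on recovered reads called Slc25a3 (-0.13, adjusted p = 0.0298), and with library totals it was at 0.04. The exons of Slc25a25 overlap Naif1 on the other strand, and reads of the overlap cannot be assigned because the strand setting of the counting is not known.

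Of the 3 tested carboxylate carriers 0 rose and 0 fell by limma, 1 had an unadjusted p below 0.05 and 1 was called by voom on recovered reads, Slc25a1 in both cases. Slc25a1, which exports citrate for lipid synthesis (chromosome 16, 17925223 to 17928219), was at 42.3, 45.2 and 37.8 FPKM in control and at 36.6, 37.0 and 34.8 FPKM in bKO. The lowest control library lay just above the highest bKO library, and the difference of -0.20 was not called (SE 0.068, limma adjusted p = 0.0814). Without control replicate 3 Slc25a1 was called at -0.27 (limma adjusted p = 0.0191). Slc25a10, the dicarboxylate carrier, was at 3.4, 2.37 and 3.55 FPKM in control and at 2.52, 2.55 and 2.27 FPKM in bKO. Control replicate 2 lay among the bKO libraries, and without it Slc25a10 was called at -0.38 (limma adjusted p = 0.0300), against -0.24 with all libraries (limma adjusted p = 0.219). Slc25a11, the oxoglutarate/malate carrier, was at 24.0 ± 2.1 FPKM in control and 22.7 ± 1.2 FPKM in bKO.

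Of the 3 uncoupling protein-like members 1 rose, against 8.96% of all genes tested. Slc25a27, also named UCP4 and best known from neurons (ENSMUSG00000023912, chromosome 17, 43641891 to 43667214), was at 3.44, 3.47 and 3.87 FPKM in control and at 4.94, 5.05 and 4.98 FPKM in bKO. All bKO libraries were above all control libraries and lay within a narrow range. Slc25a27 rose by 0.38 on the log2(FPKM + 1) scale (SE 0.061, limma adjusted p = 0.00672). Its bKO mean was 1.39 times its control mean, and it was called in all 15 settings. Slc25a14 and Slc25a30, its relatives, were at 6.92 ± 0.74 and 1.56 ± 0.37 FPKM in control and at 7.19 ± 0.54 and 1.59 ± 0.20 FPKM in bKO (SD, n = 3 per group).

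Among the 8 tested amino acid carriers 1 rose and 1 fell, against 8.96% and 11.4% of all genes tested. Slc25a13, the aspartate/glutamate carrier named citrin (ENSMUSG00000015112, chromosome 6, 6041218 to 6217173), was at 2.03, 1.96 and 2.18 FPKM in control and at 1.37, 1.13 and 1.45 FPKM in bKO. The groups did not overlap, from 386 reads in control and 280 in bKO over the 3 libraries of a group. Slc25a13 fell by 0.40 on the log2(FPKM + 1) scale (SE 0.087, limma adjusted p = 0.0206). Its bKO mean was 0.642 of its control mean, the lowest such ratio among the 38 tested members. The pseudocount shrinks differences of genes at this level, and with a pseudocount of 0.1 the difference was -0.61. Leaving out control replicate 1, control replicate 3, bKO replicate 1 or bKO replicate 2 ended its call (differences of -0.40, -0.37, -0.42 and -0.34, limma adjusted p = 0.0647, 0.0589, 0.0563 and 0.0598), as did testing without the filter (limma adjusted p = 0.0659).

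Slc25a12, the other aspartate/glutamate carrier, named aralar (chromosome 2, 71271063 to 71367749), was at 9.87, 9.08 and 9.62 FPKM in control and at 8.77, 9.31 and 9.89 FPKM in bKO. The genotypes overlapped fully, with a difference of -0.03 (95% interval -0.17 to 0.11, limma adjusted p = 0.768). Slc25a29, a carrier of basic amino acids (ENSMUSG00000021265, chromosome 12, 108825873 to 108835883), was at 7.44, 6.44 and 8.31 FPKM in control and at 9.53, 9.19 and 9.65 FPKM in bKO. It rose by 0.32 (SE 0.084, limma adjusted p = 0.0377), and all bKO libraries were above all control libraries. The call of Slc25a29 was lost without control replicate 1 or 2 (0.33 and 0.24, limma adjusted p = 0.0922 and 0.0613) and without bKO replicate 1, 2 or 3 (0.32, 0.34 and 0.31, limma adjusted p = 0.106, 0.0811 and 0.1001). Without the filter on low values its limma adjusted p was 0.0789.

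The remaining tested amino acid carriers were not called. Slc25a44, the carrier of branched-chain amino acids, was at 29.2 ± 1.3 FPKM in control and 31.3 ± 1.2 FPKM in bKO, and Slc25a38, the glycine carrier that feeds heme synthesis, at 6.09 ± 0.59 and 7.07 ± 0.65 FPKM. With library totals both were called higher (0.27 and 0.34, limma adjusted p = 0.0058 and 0.0358). Quantile normalization also called Slc25a44 higher (0.18, limma adjusted p = 0.040). Slc25a22, a glutamate carrier, differed by -0.02 (95% interval -0.16 to 0.13) and Slc25a15, the ornithine carrier, by -0.05 (95% interval -0.35 to 0.25). Slc25a18, the second glutamate carrier, had the widest interval of the 38 tested members and was at 0.130, 0.516 and 0.420 FPKM in control and at 1.53, 0.837 and 0.368 FPKM in bKO. Its bKO replicate 1 had 56 reads and its bKO replicate 3 had 13, the number of control replicate 3, and the difference of 0.46 was not called (95% interval -0.10 to 1.03, limma adjusted p = 0.222). It reached 0.5 FPKM in 1 control and 2 bKO libraries only. The exons of Slc25a18 overlap Atp6v1e1 on the other strand.

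Of 10 tested carriers of cofactors, acylcarnitines and pyrimidine nucleotides 3 fell and 0 rose, against 11.4% and 8.96% of all genes tested. With so few genes in a group formed after the values were seen, this count is not a trait of the group. Slc25a36, a pyrimidine nucleotide carrier (ENSMUSG00000032449, chromosome 9, 97074961 to 97111157), was at 12.3, 12.02 and 12.9 FPKM in control and at 10.1, 9.88 and 10.2 FPKM in bKO. The libraries of a genotype lay close together and far from the other genotype. Slc25a36 fell by 0.27 on the log2(FPKM + 1) scale (SE 0.046, limma adjusted p = 0.00798) and was called in 14 of 15 settings, with the call lost only when libraries were scaled by their totals (-0.11, limma adjusted p = 0.144). Slc25a33, the other pyrimidine nucleotide carrier, was at 1.56 ± 0.14 FPKM in control and 1.55 ± 0.23 FPKM in bKO.

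Slc25a51, the carrier that supplies mitochondria with NAD (chromosome 4, 45395923 to 45408766), was at 27.1, 24.4 and 24.9 FPKM in control and at 21.6, 22.8 and 21.3 FPKM in bKO. It fell by 0.21 on the log2(FPKM + 1) scale (SE 0.052, limma adjusted p = 0.0322), with no overlap between the groups. Slc25a17, the member of the peroxisomal membrane (chromosome 15, 81318911 to 81360812), was at 17.3, 18.9 and 17.02 FPKM in control and at 15.1, 15.5 and 15.9 FPKM in bKO. It fell by 0.18 (SE 0.051, limma adjusted p = 0.0463), the smallest called difference of the family. Leaving out control replicate 1 or 3 or any bKO replicate ended the call of Slc25a51 (-0.24 to -0.17, limma adjusted p = 0.0519 to 0.101), and leaving out control replicate 1 or 2 or any bKO replicate ended that of Slc25a17 (-0.20 to -0.14, limma adjusted p = 0.0811 to 0.135). With library totals Slc25a51 and Slc25a17 were at -0.04 and -0.02 and were not called, and they also lost their calls without the filter (limma adjusted p = 0.0558 and 0.0729), with quantile normalization (0.114 and 0.137) and with totals that leave out Ins1 and Ins2 (0.0675 and 0.111). The exons of Slc25a51 overlap Gm25692 on the same strand.

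Slc25a16, which has been linked to coenzyme A, was at 7.36, 6.71 and 5.83 FPKM in control and at 5.06, 5.56 and 5.68 FPKM in bKO. The difference of -0.24 was not called (limma adjusted p = 0.0929), but was called without control replicate 3 (-0.32, limma adjusted p = 0.0345) and by voom on recovered reads (-0.28, adjusted p = 0.0202). Slc25a32, a carrier of folate and FAD, was at 7.96 ± 0.27 FPKM in control and 7.00 ± 0.63 FPKM in bKO (limma adjusted p = 0.143). Slc25a20, the carnitine/acylcarnitine carrier of fatty acid oxidation, differed by 0.06 (95% interval -0.09 to 0.22) and was not called. Slc25a42, a coenzyme A carrier, differed by -0.04 and Slc25a26, the S-adenosylmethionine carrier, by -0.13, and neither was called.

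None of the 4 carriers of iron and glutathione was called by limma, 0 had an unadjusted p below 0.05, and 1, Slc25a40, was called by voom on recovered reads. Slc25a39, whose product brings glutathione into the matrix (chromosome 11, 102402985 to 102407946), was at 54.5, 48.6 and 48.2 FPKM in control and at 49.9, 48.0 and 51.2 FPKM in bKO. The genotypes overlapped, with a difference of -0.02 (95% interval -0.15 to 0.12). Its relative Slc25a40 was at 1.76 ± 0.18 FPKM in control and 1.396 ± 0.15 FPKM in bKO, without overlap (-0.20, limma adjusted p = 0.166). The iron importers, the mitoferrins Slc25a28 and Slc25a37, were at 21.8 ± 2.5 and 2.98 ± 0.30 FPKM in control and at 24.6 ± 0.95 and 3.21 ± 0.37 FPKM in bKO (SD, n = 3 per group).

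The last 9 members act in mitochondrial dynamics or have no substrate assigned here, and 4 of them were tested. By limma 0 were called and 2, Slc25a46 and Slc25a53, had an unadjusted p below 0.05, and voom on recovered reads called 1, Slc25a53. Slc25a46, an outer membrane protein of fusion and fission (chromosome 18, 31580168 to 31609902), was at 14.0, 12.9 and 14.0 FPKM in control and at 12.02, 12.4 and 12.3 FPKM in bKO. The groups did not overlap, and the difference of -0.14 was not called (limma adjusted p = 0.0770). Slc25a53 differed by -0.17 (limma adjusted p = 0.109) and Slc25a35 by 0.18 (limma adjusted p = 0.213). Slc25a47, a gene best known from liver, was at 0.583, 0.525 and 0.496 FPKM in control and at 1.01, 0.591 and 0.924 FPKM in bKO, from 24 to 28 reads per control library and 32 to 58 per bKO library. Its lowest bKO library was just above its highest control library (0.26, limma adjusted p = 0.190).

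**Figure D3:**
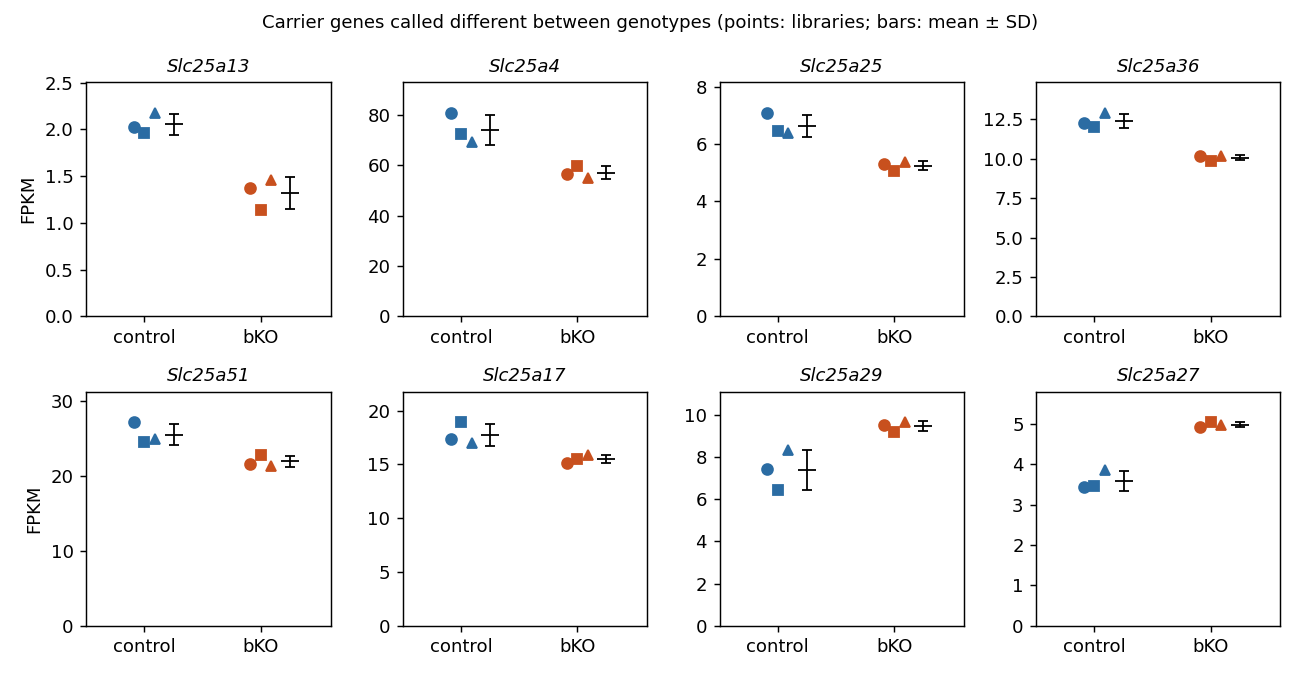
FPKM of the 8 called members in each library, with the mean and SD of each genotype beside the points and every axis starting at 0. In each panel all 3 bKO libraries lie on one side of all 3 control libraries.

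Ratios between carriers that share a substrate do not depend on how libraries are scaled, since both genes are read in the same library. 6 such pairs, chosen after the members' values were seen, were compared, and in 4 of them the genotypes did not overlap. Each of these 4 pairs holds a member called lower and a partner that was not called, so the ratios are another view of the values above and not separate evidence, and 40.1% of single genes tested did not overlap either. The ratio of Slc25a5 to Slc25a4 was 1.145, 1.175 and 1.31 in control and 1.498, 1.49 and 1.655 in bKO. Slc25a5 mRNA was therefore a larger part of the ADP/ATP carrier mRNA in every bKO library. The ratio of Slc25a12 to Slc25a13 was 4.87, 4.64 and 4.42 in control and 6.40, 8.22 and 6.81 in bKO, and that of Slc25a23 to Slc25a25 was 1.55, 1.62 and 1.68 in control and 2.04, 2.14 and 2.05 in bKO. In both pairs each bKO library was above each control library. The ratio of Slc25a36 to Slc25a33 was 7.30, 8.50 and 8.06 in control and 7.07, 5.45 and 7.27 in bKO, lower in bKO by a thin margin. Each of these 4 pairs had a p = 0.1 by the two-sided exact permutation test, and 3 libraries against 3 cannot give a smaller one (0.15 adjusted over the 6 pairs). The mitoferrin ratio of Slc25a28 to Slc25a37 (7.41 ± 1.4 in control and 7.75 ± 1.2 in bKO) and the ratio of Slc25a39 to Slc25a40 (29.0 ± 4.9 and 35.8 ± 3.3) overlapped between genotypes (SD, n = 3 per group, exact permutation p = 0.8 and 0.2, 0.8 and 0.24 adjusted). Ratios are free of scaling but not of reads from overlapping genes. The exons of Slc25a23, Slc25a25, Slc25a33 and Slc25a37 overlap other genes on the other strand.

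**Figure D4:**
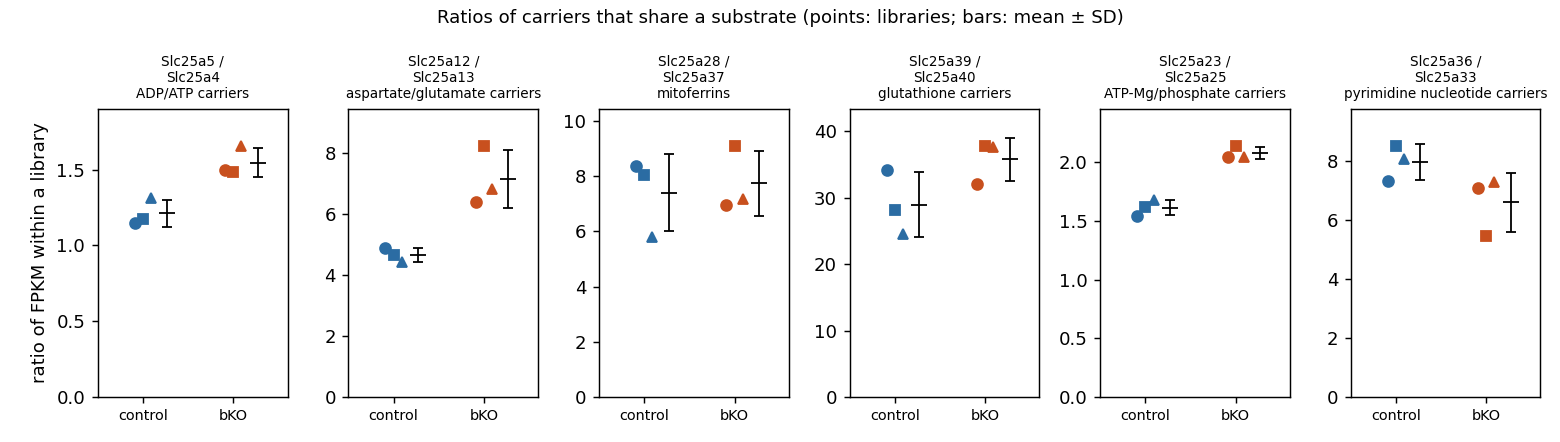
Ratio of FPKM between 2 carriers that share a substrate, in each library, with the mean and SD of each genotype and axes starting at 0. The genotypes separate for Slc25a5 to Slc25a4, Slc25a12 to Slc25a13, Slc25a23 to Slc25a25 and, narrowly, Slc25a36 to Slc25a33, and overlap for the other pairs.

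The authors' values are scaled by size factors. When libraries were scaled by their total reads instead, the median difference of all genes tested moved from -0.01 to 0.13, and 10 members were called higher and 1, Slc25a4, lower. Of all calls 83.3% were then higher, against 44.1%. With totals that leave out Ins1 and Ins2, a setting chosen after seeing the data, 58.0% of all calls were higher, and 6 members were called, all of them among the 8: Slc25a13, Slc25a4, Slc25a25 and Slc25a36 lower, and Slc25a27 and Slc25a29 higher. With plain totals Slc25a4 was at -0.20, Slc25a27 at 0.53 and Slc25a29 at 0.48, all called, and Slc25a13 at -0.29, not called (limma adjusted p = 0.0549), beside the median of 0.13 for all genes.

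**Figure D5:**
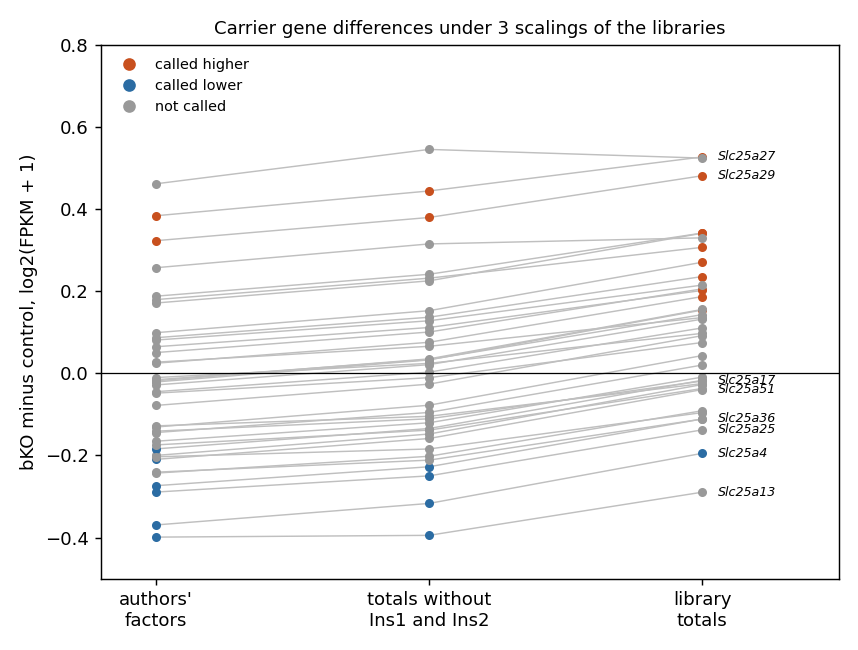
Difference between bKO and control on the log2(FPKM + 1) scale for each tested member under the authors' factors, library totals without Ins1 and Ins2, and library totals, with lines joining a gene's values and colour marking calls. Nearly all lines rise from left to right, with 2 members called higher under the authors' factors and 10 under library totals.

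Members lie on 19 chromosomes and the 8 called ones on 8, so no called member neighbours another. Slc25a29 and Slc25a47 on chromosome 12 are transcribed away from each other from starts 163 bases apart in GENCODE vM21. Slc25a29 rose, and Slc25a47 was at 0.535 ± 0.044 FPKM in control and 0.842 ± 0.22 FPKM in bKO (limma adjusted p = 0.190). Slc25a27 shares such a start region with Cyp39a1, 211 bases away, and Cyp39a1 differed by 0.04 (limma adjusted p = 0.765). Slc25a32 and Slc25a40 face Dcaf13 and Dbf4 at 149 and 134 bases. The neighbours' differences were -0.16 and -0.19, beside -0.17 and -0.20 for the carriers. None of the 4 genes was called by limma (adjusted p = 0.163, 0.236, 0.143 and 0.166). Dbf4 was at 0.58, 0.72 and 0.65 FPKM in control and at 0.47, 0.40 and 0.46 FPKM in bKO. It thus passed the filter of 0.5 FPKM only through control, and the pseudocount shrinks differences at this level, so the likeness of its value to that of Slc25a40 is not a result. Slc25a15, at -0.05, faces the noncoding gene 1810012K16Rik at 124 bases, which differed the other way by 0.61 and was not called (limma adjusted p = 0.0798).

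RefSeq promoters (GRCm38.p6, 250 bases before to 50 after a start) were matched for 36 of the 47 members and for 6 of the 8 called ones. The 5 below are those of the called members with the lowest ratio of means (Slc25a13), the highest level (Slc25a4), a start region shared with a second carrier (Slc25a29) and a cAMP response element in the window (Slc25a25 and Slc25a36). They are written 5′ to 3′ on the strand of the gene, with matches to CACGTG or TGACGTCA in capitals.
Slc25a4 (chr8:46211013-46211312, minus strand): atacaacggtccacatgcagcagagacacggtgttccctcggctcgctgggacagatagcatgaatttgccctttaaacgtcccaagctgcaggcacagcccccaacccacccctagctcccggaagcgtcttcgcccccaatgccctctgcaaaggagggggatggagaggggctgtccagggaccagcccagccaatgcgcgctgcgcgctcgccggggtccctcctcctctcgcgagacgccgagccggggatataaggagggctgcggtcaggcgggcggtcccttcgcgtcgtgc
Slc25a13 (chr6:6217124-6217423, minus strand): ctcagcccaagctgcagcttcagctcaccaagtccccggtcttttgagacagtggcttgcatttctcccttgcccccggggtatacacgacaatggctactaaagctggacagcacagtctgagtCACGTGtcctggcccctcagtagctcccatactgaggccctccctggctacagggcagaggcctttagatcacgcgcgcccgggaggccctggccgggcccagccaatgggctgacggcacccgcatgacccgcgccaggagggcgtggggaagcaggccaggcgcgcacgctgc
Slc25a29 (chr12:108835827-108836126, minus strand): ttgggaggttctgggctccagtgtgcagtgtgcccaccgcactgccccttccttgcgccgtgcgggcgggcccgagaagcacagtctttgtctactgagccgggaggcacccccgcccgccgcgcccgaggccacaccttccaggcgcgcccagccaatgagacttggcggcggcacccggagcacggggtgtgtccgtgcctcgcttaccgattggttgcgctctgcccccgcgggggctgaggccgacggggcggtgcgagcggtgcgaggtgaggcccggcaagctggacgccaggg
Slc25a25 (chr2:32424017-32424316, minus strand): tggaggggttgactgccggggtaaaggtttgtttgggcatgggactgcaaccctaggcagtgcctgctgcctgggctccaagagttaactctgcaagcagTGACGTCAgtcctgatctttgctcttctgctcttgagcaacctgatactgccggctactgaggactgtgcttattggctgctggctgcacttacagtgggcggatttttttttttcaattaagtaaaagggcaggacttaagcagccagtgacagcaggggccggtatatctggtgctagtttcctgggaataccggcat
Slc25a36 (chr9:97110992-97111291, minus strand): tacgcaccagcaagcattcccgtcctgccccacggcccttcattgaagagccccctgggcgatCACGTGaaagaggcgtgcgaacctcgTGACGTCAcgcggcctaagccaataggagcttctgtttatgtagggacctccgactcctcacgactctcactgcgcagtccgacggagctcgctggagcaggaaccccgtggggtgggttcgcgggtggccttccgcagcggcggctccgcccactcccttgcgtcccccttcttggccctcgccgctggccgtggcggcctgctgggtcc

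The capitals mark the E-box CACGTG, read by basic helix-loop-helix factors, 125 bases before the start of Slc25a13 and 187 before that of Slc25a36. They also mark the cAMP response element TGACGTCA, 150 bases before this start of Slc25a25, which has 3 in the table, and 161 before that of Slc25a36. Of the 46 member promoters 8 (17.4%) held the E-box and 2 (4.35%) the cAMP response element, against 7.15% and 1.79% of all 32841 promoters. The 2 with the cAMP response element are those printed above because they hold it, and the other promoters of Slc25a25 had no match to it. The GC box GGGCGG was in 82.6% of member promoters and in 35.7% of all, and CCAAT in 47.8% and 37.4%. The median GC content was 59.3% in member promoters and 52.7% in all. The NRF1 motif was in 4.35% against 4.604%, and the ERR motif TCAAGGTCA and the amino acid response element TGATGNAA in 0 member promoters, against 0.423% and 3.97% of all. Each motif was searched on both strands and counted on its own, matches of different motifs may overlap, and a match is a description of the letters and not of binding.

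Carriers work with other proteins of the mitochondrial membranes, which were followed in 4 lists. Of 3 tested relatives of the family under other names 1 fell (33.3% called, against 20.3% of all genes tested), too few genes to compare the shares. Mtch1, an outer membrane carrier homologue, went from 117 ± 4.3 to 97.1 ± 0.85 FPKM (-0.27, limma adjusted p = 0.00448). Ucp2, the uncoupling protein of beta cells, was at 34.3 ± 2.1 FPKM in control and 32.2 ± 2.9 FPKM in bKO (limma adjusted p = 0.438), and Ucp1 and Ucp3 were below the filter. Of 15 tested genes of the import machinery for carriers 2 fell and 0 rose (13.3% called, against 20.3% of all genes tested), with a median of -0.05 against -0.01 for all genes tested. Timm8b, a small chaperone of the intermembrane space, went from 43.7 ± 3.1 to 33.5 ± 1.7 FPKM (-0.37, limma adjusted p = 0.00789), and Tomm22, a receptor of the outer membrane, from 19.6 ± 0.35 to 16.8 ± 0.86 FPKM (-0.21, limma adjusted p = 0.0246). Leaving out any control replicate, bKO replicate 1 or bKO replicate 2 ended the call of Tomm22 (-0.22 to -0.18, limma adjusted p = 0.0501 to 0.0834). Timm22, the channel through which carriers enter the inner membrane, differed by -0.05 (95% interval -0.27 to 0.17).

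Of 20 other tested transporters of the mitochondrial membranes 3 fell and 1 rose (20.0% called, against 20.3% of all genes tested), with a median of -0.06. Vdac1, the main outer membrane channel, went from 45.8 ± 2.8 to 37.8 ± 1.9 FPKM (-0.27, limma adjusted p = 0.0194), and Abcb10, an ABC transporter of heme-forming cells, from 21.3 ± 0.68 to 17.5 ± 0.39 FPKM (-0.27, limma adjusted p = 0.00602). Micu2, a regulator of the calcium uniporter, fell by 0.22 and Mcub, an inhibitory subunit of that uniporter, rose by 0.51 (limma adjusted p = 0.0374 and 0.0362). Leaving out a library ended the call of Vdac1 (control replicate 1 or bKO replicate 1 or 3, -0.28 to -0.23), of Micu2 (any control replicate or bKO replicate 1 or 3, -0.23 to -0.17) and of Mcub (control replicate 2 or 3 or any bKO replicate, 0.39 to 0.54). Mpc1, a subunit of the mitochondrial pyruvate carrier, was at 4.10 ± 0.25 and 4.28 ± 0.24 FPKM, and Mpc2, its partner, at 4.29 ± 0.096 and 3.67 ± 0.29 FPKM in control and bKO, neither of them called. With library totals 0 genes of these 3 lists were called lower.

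Of 26 tested enzymes that make or use what the carriers move or run the second NADH shuttle, 5 rose and 6 fell. The share called was 42.3%, against 20.3% of all genes tested, and the median difference was -0.10. Some of these enzymes, such as Gpd2, were known from earlier results of the same data to differ, so the share is a description of the list. Gpd2, the glycerol phosphate dehydrogenase of the second NADH shuttle, fell by 1.04 on the log2(FPKM + 1) scale, from 22.9 ± 0.79 to 10.6 ± 0.61 FPKM (limma adjusted p = 0.000152). Acly, which splits the citrate that Slc25a1 exports, fell from 346 ± 23 to 236 ± 3.4 FPKM (-0.55, limma adjusted p = 0.00111). Pcx, pyruvate carboxylase, fell from 46.6 ± 2.0 to 34.6 ± 1.6 FPKM (-0.42, limma adjusted p = 0.00234), and Cpt2, which takes up the acylcarnitines that Slc25a20 brings in, from 25.6 ± 1.2 to 18.7 ± 1.5 FPKM (-0.43, limma adjusted p = 0.00549). Shmt2, the mitochondrial serine hydroxymethyltransferase of folate metabolism, rose from 8.35 ± 0.81 to 13.9 ± 0.13 FPKM, and Ass1, argininosuccinate synthase, from 0.844 ± 0.11 to 3.26 ± 0.23 FPKM (limma adjusted p = 0.00134 and 0.000401). Both rises were larger on the log2(FPKM + 1) scale, at 0.67 and 1.21, than any difference within the carrier family. That scale shrinks low genes. By the ratio of the bKO mean to the control mean, Slc25a18, low and not called, was at 2.56, above Shmt2 at 1.66 and below Ass1 at 3.86.

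The 9 members that were not tested had few or no reads. Slc25a45 and Slc25a43 were at 0.435 ± 0.051 and 0.376 ± 0.080 FPKM in control and at 0.472 ± 0.10 and 0.392 ± 0.16 FPKM in bKO (SD, n = 3 per group). Slc25a31, the ADP/ATP carrier of testis, had 3, 9 and 7 reads in control and 14, 12 and 8 in bKO, and Slc25a2, an ornithine carrier, had 5, 3 and 2 reads and 12, 7 and 0. Slc25a34 had 10 reads in control and 15 in bKO over the 3 libraries of a group, Slc25a54 had 1 and 3, Slc25a48 had 1 and 2, and Slc25a41 had 2 and 0. Without the filter on low values 8 of these 9 could be tested, limma called 0 and 0 had an unadjusted p below 0.05.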

How the data were processed

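The authors deposited an FPKM value for each of 54532 genes in each library. Alignment used HISAT2 2.0.5 on GRCm38 and counting used featureCounts 1.5.0-p3, per the series' design text. DESeq2 1.20.0 and CASAVA stand in the submitters' processing notes with no role. The annotation release, strand setting and handling of reads with several matches are not known from the labels or the design text.

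Multiplied by gene length and by 1 factor for its library, each value above 0 gave a whole number of reads to within 0.01 (100% of them), which makes the depth known. 0 columns of other samples were present. Libraries of a group differed beyond sampling noise (3.87 to 6.05 chi-square units for each degree of freedom), so no library was merged with another, which does not exclude repeat preparations of 1 sample.

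limma 3.58.1 (R 4.3.3) with a mean-variance trend was fitted to log2(FPKM + 1), bKO against control, for the 15717 genes that reached 0.5 FPKM in 3 or more libraries. p-values were two-sided and Benjamini-Hochberg adjusted over all genes, with a threshold of 0.05, and were tested on simulated data. The log scale understates changes of low genes. Ratios were compared with exact permutation tests (scipy 1.17.1). Python 3.11.15, pandas 2.3.3, numpy 2.4.6 and matplotlib 3.10.9 were used. Members, lists and tests were chosen with earlier results of these data known, and the substrate groups, ratio pairs and promoter motifs were set after the members' values were seen. Named by rule were Ythdc1, every member, and the called genes of each list, at most the 6 with the smallest adjusted p. Timm22, Ucp2, Mpc1, Mpc2 and the neighbouring genes were named after their values were seen. 1 member, tested and counted with the others, is not reported here by name. Positions are those of the table, and GENCODE vM21 held all 47 members, 44 with the same start and end. The exons of 14 members overlap another gene there, and how reads of such overlaps were counted is not known. The cell types whose markers were read are beta, alpha, delta, PP, acinar, duct, macrophage, endothelial, mesenchymal, Schwann, lymphocyte, adipocyte and erythroid. Alternatives were a pseudocount of 0.1, no filter, a filter of 1 FPKM, library totals, quantile normalization, voom on recovered reads, the replicate number as a block, and leaving out each library. Totals without Ins1 and Ins2 were added after seeing the data.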

Additional observations from a re-analysis of the deposited data

How the results depend on the processing

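Slc25a4 and Slc25a27 were called in all 15 settings. The 6 members lower and 2 higher became 3 and 1 with no filter, 1 and 10 with library totals, and 11 and 2 with voom on recovered reads. Leaving out a library gave 2 to 6 members lower and 1 to 2 higher. Over all genes, 1784 lower and 1408 higher became 737 and 3684 with library totals, and 1037 to 1604 and 852 to 1179 with a library left out. The replicate number as a block gave 1152 lower and 925 higher genes and 4 and 2 members, with the calls of Slc25a51 and Slc25a17 lost (limma adjusted p = 0.0805 and 0.0940). Same-numbered libraries correlated at -0.052, -0.014 and -0.073 in their deviations from the group mean, and differently numbered ones at -0.017 to 0.062. No library correlated best with its own number. Deviations from a mean of 3 libraries sum to 0 and so constrain each other, and these values cannot decide whether the numbers pair libraries. In the list of relatives 1 lower became 0 with library totals and 2 with voom. In that of other transporters 3 lower became 0 with library totals and 1 with quantile normalization or the block, and 1 higher became 4 with library totals and 0 with no filter, quantile normalization or the block. A left-out library gave 1 to 3 lower and 0 to 1 higher. In the import list 2 lower became 0 with library totals and 1 with totals without insulin genes, quantile normalization or the block, and 1 to 2 with a left-out library. In the enzyme list 6 lower became 10 with voom, and 5 higher became 3 to 4 with a left-out library. The cause was not tested. Depth limits what can be said of the 9 members that were not tested and of Slc25a18 and Slc25a47.

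Members whose sign changed were not called by limma under the authors' scaling with all 6 libraries. With library totals these were Slc25a5 at 0.154, Slc25a3 at 0.0428, Slc25a39 at 0.155, Slc25a11 at 0.0914, Slc25a46 at 0.0198, Slc25a12 at 0.132, Slc25a22 at 0.142, Slc25a42 at 0.11, Slc25a15 at 0.0747 and Slc25a33 at 0.097. With totals without insulin genes they were Slc25a5 at 0.0324, Slc25a39 at 0.0349, Slc25a12 at 0.0209, Slc25a22 at 0.0332, Slc25a42 at 0.00265 and Slc25a33 at 0.024, and with quantile normalization Slc25a5 at 0.11, Slc25a39 at 0.0938, Slc25a22 at 0.00301 and Slc25a30 at -0.0542. With a library left out, Slc25a5 ranged from -0.0564 to 0.00664, Slc25a39 from -0.0495 to 0.0374, Slc25a12 from -0.0678 to 0.0105, Slc25a22 from -0.0652 to 0.0371, Slc25a42 from -0.0771 to 0.00942, Slc25a14 from -0.0249 to 0.109, Slc25a15 from -0.119 to 0.0882, Slc25a30 from -0.0799 to 0.131 and Slc25a33 from -0.0829 to 0.0302.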

Other observations

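Slc25a5-ps, a transcribed processed pseudogene of the ADP/ATP carrier gene Slc25a5 on chromosome 14, was not a member because it is not protein-coding. It was at 0.325, 0.386 and 0.147 FPKM in control and at 0.421, 0.341 and 0.411 FPKM in bKO, far below Slc25a5 itself. How reads shared by the gene and its copies were counted was not given in the sources used here.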
